A study of Mus musculus with 4 samples.

Results

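Macrophages and related myeloid cells were read through 36 genes in allograft tumours of Nf2-deficient mouse Schwann cells. The genes were picked by symbol from the tumour expression table, with the conditions that the row had status OK and reached 1 FPKM in at least 1 tumour library. All 36 listed genes met them, out of 15550 genes that did so in the whole table. FPKM is a transcript level scaled to transcript length and to library size.

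The graft was ESC-FC1801, a single line of embryonic Schwann cells of FVB/N background. Ad-Cre, an adenovirus carrying Cre, had removed its Nf2Flox/Flox alleles in vitro, so the line lacked the tumour suppressor merlin in every group. One tumour library came from hosts dosed with NXD30001, an inhibitor of the chaperone HSP90, at 100 mg/kg on a schedule of 3 doses weekly over 4 weeks, and the other from hosts given vehicle on that schedule. The culture groups were ESC-FC1801 cells kept for 24 h in 1 µM NXD30001 and in DMSO. Each of the 4 groups had 1 library. With no replicates there is no test, and every difference is between libraries and not between conditions. The sample-type label reads cultured cells for all 4, but by title, source and treatment 2 libraries are of tumours, and they were taken as such. Sources used here do not describe the host mice (strain, age, immune state) or say whether tumours were pooled.

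Macrophages are phagocytes that enter tissues as monocytes or live there from early development. They depend on CSF1 signalling, take up debris through scavenger, complement and Fc receptors, and break it down in lysosomes. In peripheral nerve and in schwannomas they are a common non-Schwann cell type. Many of the 36 genes are used by macrophages in particular, while others (Ptprc, Cd53, Laptm5, Lcp1, Fcer1g, Tyrobp) are shared with other leukocytes. Apoe, Gpnmb, Lgmn and Cd68 are also made by other cell types.

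The library depth is not held by FPKM. From 56 genes whose error in the authors' deposited table is that of a single fragment per library, the depth of the NXD30001 tumour library was put at 1.19 times that of its vehicle counterpart. An error for each gene was read from the same table as the fold divided by the authors' statistic (log2 scale, the implied error in what follows). It covers the reads of 2 libraries and no variation between animals. Among the 36 genes its median was 0.33. It was 1.19 for Ptprc, 2.16 for Lyz2 and only 0.03 for Apoe, and for the other 33 it lay between 0.21 and 0.59.

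The cultured graft line held very little RNA of these genes. Of the 36 genes, 20 were listed at 0 in both culture libraries, and 16 were above 0 in at least 1. Only Lgmn, Cd68 and Apoe reached 1 FPKM. Lgmn, which encodes the lysosomal protease legumain, was at 4.83 FPKM with NXD30001 and 6.92 FPKM with DMSO. Cd68, a lysosomal glycoprotein gene, was at 1.93 FPKM with NXD30001 and 2.32 FPKM with DMSO. Apoe, the lipid carrier apolipoprotein E, was at 1.24 FPKM with NXD30001 and 0.164 FPKM with DMSO. The highest culture level among the remaining 33 was 0.503 FPKM, for Gpnmb with DMSO. In the tumours those 33 genes started at 4.29 FPKM in the NXD30001 library and 2.97 FPKM in the vehicle library, and they were thus readable in tumour tissue while near the floor in the line grown alone. Culture and tumour tables were made separately, so these levels are set side by side and not divided. For genes at 30 to 100 FPKM in the untreated library, the median implied error was 0.69 in culture and 0.30 in the tumours. Differences in culture thus carry a wider error, and a culture value listed at 0 has no error attached. Of all 15550 tumour genes, 74.3% reached 1 FPKM in a culture library, against 3 of these 36.

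**Figure D1:**
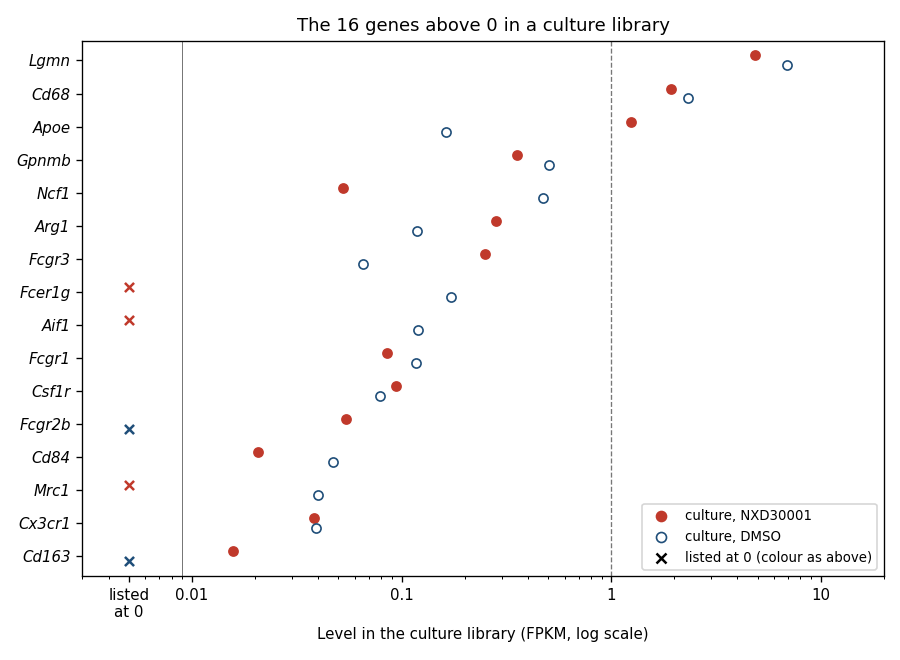
Levels of the 16 genes that were above 0 in a culture library (FPKM, log axis), with NXD30001 as filled red points, DMSO as open blue points and crosses for values listed at 0. Only Lgmn, Cd68 and Apoe lie at or to the right of the dashed line at 1 FPKM.

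In the tumours 34 of the 36 genes were lower in the NXD30001 library and 2, Apoe and Gpnmb, were higher (33 were lower after centring on all genes, where Fcer1g crossed 0). The median difference was -0.40 on the log2(FPKM + 1) scale, against -0.03 over all 15550 genes compared. The quartiles of the 36 genes were -0.92 and -0.18, and those of all genes -0.35 and 0.31. A difference below 0 was found for 52.7% of all genes and for 94.4% of these. At least a 2-fold lower level was found for 6 genes (16.7%), namely Ptprc, Ms4a7, Pf4, Mrc1, Clec4n and Lcp1, where 6.93% of all genes were that much lower. Gpnmb was the only member at least 2-fold higher, a step that 7.32% of all genes took. The other 29 stayed within 2-fold on the log2(FPKM + 1) scale. One of them, Cybb, passed 2-fold as a plain ratio of FPKM, with a log2 ratio of -1.06. Csf1r and Emr1, defining receptors of macrophages, were present in both tumours. In these bulk libraries fewer macrophages and less RNA per macrophage cannot be told apart.

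The comparison with all genes mixes graft and host RNA. Among the 3991 tumour genes under 1 FPKM in both culture libraries, 15.5% were at least 2-fold lower, and among the 2107 of them that reached 5 FPKM in a tumour it was 15.3%. For the 33 members of that kind it was 6, or 18.2%, so the count of large steps lies near that background. Below 0 were 32 of the 33, with a median of -0.42, while 51.4% of the 2107 were below 0 with a median of -0.03.

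The authors' deposited table called 5 of the 36 lower (Ms4a7, Mrc1, Lcp1, Emr1 and Laptm5), or 13.9%, and it called 2.45% of all genes lower. In the authors' deposited table Gpnmb and Apoe were called higher, as were 3.14% of all genes. A looser reading takes the genes whose statistic in the authors' deposited table is 1.96 or more in size, the 95% range of the implied error. By that bound 15 members were lower (41.7%, against 8.12% of genes with a finite statistic), 2 were higher (8.49% of genes) and 19 lay within the range. The shares of calls and of this bound are over graft and host RNA together. They were not taken among the genes under 1 FPKM in culture.

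**Figure D2:**
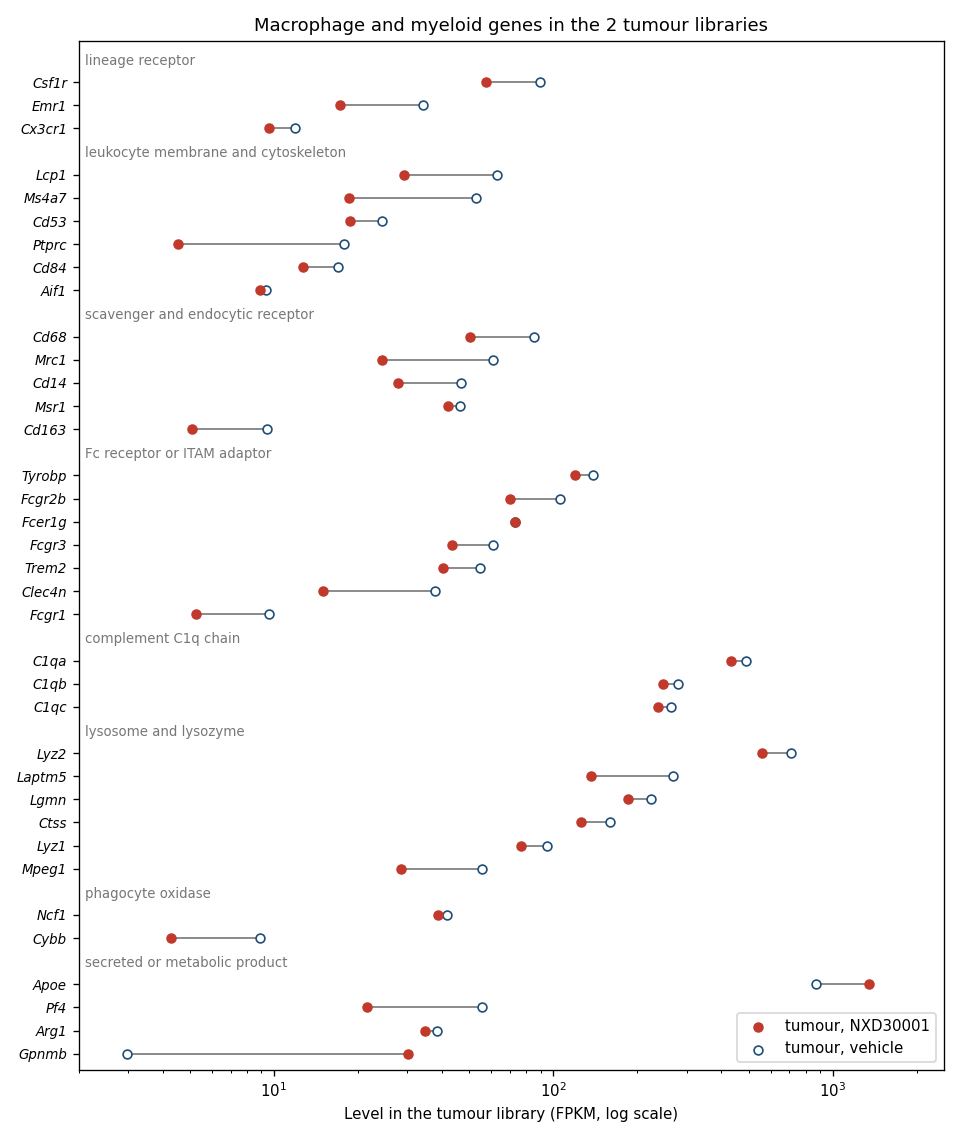
Level of each of the 36 genes in the NXD30001 tumour (filled red) and the vehicle tumour (open blue), in FPKM on a log axis, grouped by role. The red point lies left of the blue one for 34 genes and right of it for Apoe and Gpnmb, and the gap is widest for Gpnmb, Ptprc, Ms4a7 and Pf4.

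Receptors that mark the lineage were lower by unequal amounts. Csf1r, the receptor for CSF1 and IL-34 on which macrophage survival depends (ENSMUSG00000024621, mm9 chromosome 18 from 61265226 to 61290791), was at 57.5 FPKM in the NXD30001 tumour and 89.5 FPKM in the vehicle tumour. Its difference was -0.63 with an implied error of 0.27, and it was not called in the authors' deposited table. Emr1, which encodes the F4/80 antigen (ENSMUSG00000004730, chromosome 17 from 57498114 to 57628671), was at 17.3 FPKM in the NXD30001 tumour and 34.1 FPKM in the vehicle tumour. Its difference of -0.94 had an implied error of 0.23 and was called lower in the authors' deposited table. Cx3cr1, the fractalkine receptor, was at 9.60 FPKM with NXD30001 and 11.9 FPKM with vehicle, a difference of -0.28 inside its implied error of 0.35.

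Among scavenger and endocytic receptors the mannose receptor stood lowest. Mrc1 (CD206, ENSMUSG00000026712, chromosome 2 from 14151041 to 14253684) was at 24.3 FPKM in the NXD30001 tumour and 60.7 FPKM in the vehicle tumour, which gave a difference of -1.29 (implied error 0.30), called lower in the authors' deposited table. The locus is also given to the intronic miRNA mmu-mir-511. Cd163, the haemoglobin scavenger receptor, was at 5.10 FPKM with NXD30001 and 9.45 FPKM with vehicle. Cd14, the co-receptor for bacterial lipopolysaccharide, was at 27.9 FPKM with NXD30001 and 46.9 FPKM with vehicle, and Cd68 at 50.5 FPKM with NXD30001 and 85.4 FPKM with vehicle. These 3 genes differed by -0.78, -0.73 and -0.75, and none was called in the authors' deposited table. Msr1, scavenger receptor A, was nearly level at 42.0 FPKM with NXD30001 and 46.2 FPKM with vehicle. Mrc1 RNA was thus 0.580 times that of Msr1 in the NXD30001 tumour and 1.31 times in the vehicle tumour.

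The genes of leukocyte membrane and cytoskeleton included the lowest ratios of the 36. Ptprc, the leukocyte common antigen CD45 (ENSMUSG00000026395, chromosome 1 from 139959992 to 140071843), was at 4.53 FPKM in the NXD30001 tumour and 17.8 FPKM in the vehicle tumour. Its difference of -1.77 was the largest downward one, but its implied error of 1.19 was far above that of its neighbours and it was not called in the authors' deposited table. Ms4a7, a tetraspan membrane protein gene of macrophages (ENSMUSG00000024672, chromosome 19 from 11395903 to 11410606), was at 18.6 FPKM with NXD30001 and 52.7 FPKM with vehicle, which gave a difference of -1.46 (implied error 0.36), called lower in the authors' deposited table. Lcp1, the actin bundler L-plastin (ENSMUSG00000021998, chromosome 14 from 75530908 to 75630649), was at 29.3 FPKM with NXD30001 and 62.8 FPKM with vehicle, which gave a difference of -1.07 (implied error 0.27), called lower too in the authors' deposited table. Cd53, a leukocyte tetraspanin gene, was at 18.7 FPKM with NXD30001 and 24.4 FPKM with vehicle, and Cd84, a SLAM family receptor gene, at 12.7 FPKM with NXD30001 and 16.9 FPKM with vehicle. Aif1, which encodes the actin-binding protein IBA1, was all but equal, at 8.89 FPKM with NXD30001 and 9.40 FPKM with vehicle. Ptprc and Cd53, both present on most leukocytes, therefore differed by -1.77 and -0.37 in the same pair of libraries.

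**Figure D3:**
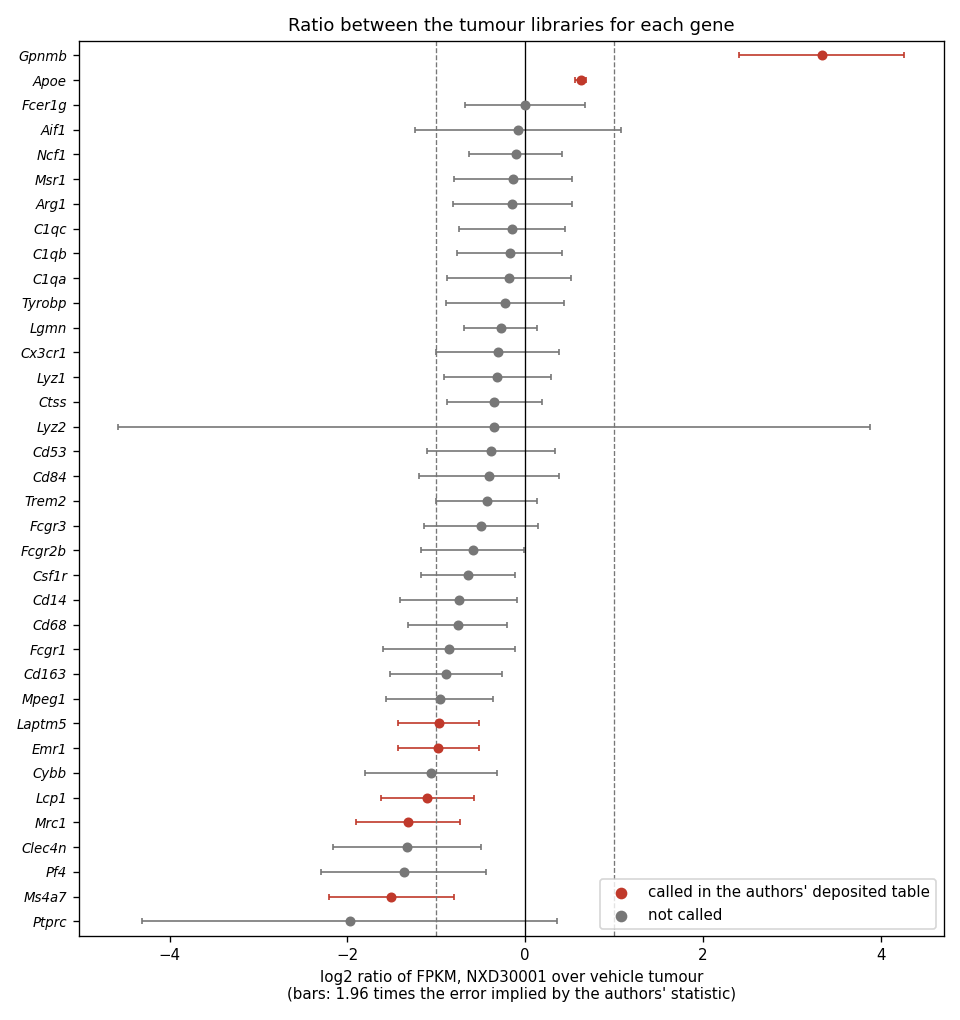
The log2 ratio of FPKM, NXD30001 over vehicle tumour, for each of the 36 genes without a pseudocount; bars span 1.96 times the implied error, red marks genes called in the authors' deposited table, and dashed lines mark 2-fold. The 5 called lower genes and Gpnmb keep clear of 0, whereas the bars of Ptprc and Lyz2 are the longest and cross it.

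The Fc receptors and the ITAM adaptors differed by unequal amounts. Fcer1g, the common Fc receptor gamma chain through which FcγRI and FcγRIII signal, was the most even of all 36, at 72.7 FPKM in the NXD30001 tumour and 72.9 FPKM in the vehicle tumour. Fcgr1, the high-affinity IgG receptor that uses this chain, was at 5.27 FPKM with NXD30001 and 9.57 FPKM with vehicle. Its RNA was 0.0725 times that of Fcer1g in the NXD30001 tumour and 0.131 times in the vehicle tumour. Fcgr3, an activating IgG receptor, was at 43.2 FPKM with NXD30001 and 60.8 FPKM with vehicle, and the inhibitory receptor Fcgr2b at 70.0 FPKM with NXD30001 and 106 FPKM with vehicle. Those receptors are related in sequence: 10.2% of the 50-base words of Fcgr3 transcripts occur in Fcgr2b transcripts, so a part of their reads is not assigned with certainty.

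Tyrobp, the adaptor DAP12, was at 119 FPKM in the NXD30001 tumour and 139 FPKM in the vehicle tumour. Its partner Trem2, a lipid-sensing receptor, was at 40.4 FPKM with NXD30001 and 54.5 FPKM with vehicle. Differences of -0.22 and -0.42 lay within 1.96 times the implied errors of 0.34 and 0.29. Clec4n, the C-type lectin Dectin-2, which signals through Fcer1g, was at 15.0 FPKM with NXD30001 and 37.8 FPKM with vehicle. Its difference of -1.28 passed 2-fold (implied error 0.42) and was not called in the authors' deposited table.

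The 3 chains of C1q, the recognition molecule of the classical complement pathway, are secreted largely by macrophages and were among the most abundant of these RNAs. C1qa was at 434 FPKM in the NXD30001 tumour and 491 FPKM in the vehicle tumour, C1qb at 247 FPKM with NXD30001 and 279 FPKM with vehicle, and C1qc at 237 FPKM with NXD30001 and 263 FPKM with vehicle. Their differences were -0.18, -0.18 and -0.15, each well inside implied errors of 0.36, 0.30 and 0.30. The genes lie side by side on chromosome 4, from 136436044 (the start of C1qb) to 136454718 (the end of C1qa) in mm9. Their proportions were nearly the same in both libraries: C1qa was 1.75 times C1qb in the NXD30001 tumour and 1.76 times in the vehicle tumour, and C1qc was 0.958 times C1qb with NXD30001 and 0.943 times with vehicle.

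Lysosome and lysozyme genes covered a wide range of levels. Lyz2, the lysozyme of macrophages, was at 558 FPKM in the NXD30001 tumour and 712 FPKM in the vehicle tumour, above 98.4% and 98.8% of compared genes. Its neighbour Lyz1 was at 76.4 FPKM with NXD30001 and 94.9 FPKM with vehicle. Of the 50-base words in Lyz1 transcripts 16.1% also occur in Lyz2, so the split of reads between these copies is uncertain. The Lyz1 level was 0.137 times that of Lyz2 in the NXD30001 tumour and 0.133 times in the vehicle tumour.

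Of the lysosomal proteases, Ctss (cathepsin S) was at 126 FPKM with NXD30001 and 160.0 FPKM with vehicle at a locus shared with the row AC092203.1, and Lgmn at 186 FPKM with NXD30001 and 224 FPKM with vehicle. Laptm5, a lysosomal membrane protein of blood cells (ENSMUSG00000028581, chromosome 4 from 130469040 to 130492056), was at 136 FPKM in the NXD30001 tumour and 268 FPKM in the vehicle tumour. It differed by -0.97 with an implied error of 0.23 and was called lower in the authors' deposited table, at a locus also given to the row AL627104.7. Mpeg1, the pore-forming protein perforin-2, was at 28.6 FPKM with NXD30001 and 55.7 FPKM with vehicle, which gave a difference of -0.94 (implied error 0.31) and no call in the authors' deposited table. Ctss and Lgmn differed by only -0.35 and -0.27.

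The 2 listed subunits of the phagocyte NADPH oxidase, which makes superoxide, differed unequally. Cybb, the catalytic subunit gp91phox, was at 4.29 FPKM in the NXD30001 tumour and 8.93 FPKM in the vehicle tumour, which gave a difference of -0.91 (implied error 0.38). Ncf1, the cytosolic subunit p47phox, was at 38.6 FPKM with NXD30001 and 41.6 FPKM with vehicle, and its locus is shared with the rows 7SK and Gtf2ird2. Further oxidase genes were lower and within 2-fold. Rac2 was at 18.2 FPKM with NXD30001 and 26.1 FPKM with vehicle, Cyba at 70.2 FPKM with NXD30001 and 94.8 FPKM with vehicle, and Ncf4 at 45.5 FPKM with NXD30001 and 53.2 FPKM with vehicle.

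The secreted and metabolic products went in different directions. Gpnmb, a transmembrane glycoprotein of lipid-laden and lysosome-stressed macrophages that pigment and glial cells can also make (ENSMUSG00000029816, chromosome 6 from 48986612 to 49006778), was at 30.1 FPKM in the NXD30001 tumour and 2.97 FPKM in the vehicle tumour. Its difference of 2.97 had an implied error of 0.47 and was called higher in the authors' deposited table. It was the lowest member in the vehicle library, above 18.1% of compared genes there, and above 66.8% of them with NXD30001. Apoe (ENSMUSG00000002985, chromosome 7 from 20281622 to 20284401) was at 1346 FPKM with NXD30001 and 873 FPKM with vehicle, the highest member in both. Its difference of 0.62 was called higher in the authors' deposited table on an implied error of 0.03, which is far below that of any other member.

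Pf4, the chemokine CXCL4 of platelets and some macrophages (ENSMUSG00000029373, chromosome 5 from 91201461 to 91202407), was at 21.5 FPKM in the NXD30001 tumour and 55.6 FPKM in the vehicle tumour. The difference of -1.33 carried an implied error of 0.47 and no call in the authors' deposited table. Arg1, the arginine-degrading enzyme of alternatively activated macrophages, was level, at 34.6 FPKM with NXD30001 and 38.4 FPKM with vehicle.

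Set against Csf1r within each library, the members lay on both sides. Levels per length of C1qa were 7.55 times Csf1r in the NXD30001 tumour and 5.49 times in the vehicle tumour, and of Fcer1g 1.26 times with NXD30001 and 0.814 times with vehicle. Mrc1 was 0.423 times Csf1r with NXD30001 and 0.678 times with vehicle, and Ms4a7 0.323 times with NXD30001 and 0.589 times with vehicle. Gpnmb went the other way, at 0.524 times Csf1r in the NXD30001 tumour and 0.0332 times in the vehicle tumour. Within 0.25 of 0 on the log2(FPKM + 1) scale were 9 members (Tyrobp, C1qa, C1qb, C1qc, Arg1, Msr1, Ncf1, Aif1 and Fcer1g), and 19 were lower by 0.25 to 1. Summed over the 35 members without Apoe, the level was 2850.0 FPKM with NXD30001 and 3745 FPKM with vehicle, a ratio of 0.761. With Apoe included the ratio was 0.909.

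Promoter letters are shown for 5 members that span this range, Mrc1 and Pf4 at the lower end, C1qb and C1qc near level and Gpnmb at the upper end. They are the 250 bases before the annotated start (RefSeq, build GRCm38.p6, not the build of the expression tables), 5′ to 3′ on the gene's strand, with capitals for AGGAAGT or its reverse complement ACTTCCT, the core that PU.1 and other ETS factors bind.
Mrc1 (chr2:14229164-14229413, plus strand): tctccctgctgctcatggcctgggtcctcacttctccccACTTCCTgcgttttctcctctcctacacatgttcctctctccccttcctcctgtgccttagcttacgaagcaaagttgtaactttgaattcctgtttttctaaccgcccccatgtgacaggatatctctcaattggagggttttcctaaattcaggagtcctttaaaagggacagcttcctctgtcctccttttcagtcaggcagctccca
Pf4 (chr5:90772185-90772434, plus strand): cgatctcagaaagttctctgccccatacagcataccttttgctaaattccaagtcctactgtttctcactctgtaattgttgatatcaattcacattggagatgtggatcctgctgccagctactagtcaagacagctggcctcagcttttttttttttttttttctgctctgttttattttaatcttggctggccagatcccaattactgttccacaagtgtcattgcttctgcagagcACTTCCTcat
C1qb (chr4:136886201-136886450, minus strand): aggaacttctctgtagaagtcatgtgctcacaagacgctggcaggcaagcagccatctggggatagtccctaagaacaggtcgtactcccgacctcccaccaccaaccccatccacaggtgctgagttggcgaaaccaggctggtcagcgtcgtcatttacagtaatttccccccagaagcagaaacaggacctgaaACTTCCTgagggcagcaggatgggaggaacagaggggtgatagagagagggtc
C1qc (chr4:136892915-136893164, minus strand): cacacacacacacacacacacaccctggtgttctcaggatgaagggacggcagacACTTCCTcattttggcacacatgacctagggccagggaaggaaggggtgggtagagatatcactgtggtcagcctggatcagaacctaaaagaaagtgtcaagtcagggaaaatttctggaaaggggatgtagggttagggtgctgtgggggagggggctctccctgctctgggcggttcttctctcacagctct
Gpnmb (chr6:49036268-49036517, plus strand): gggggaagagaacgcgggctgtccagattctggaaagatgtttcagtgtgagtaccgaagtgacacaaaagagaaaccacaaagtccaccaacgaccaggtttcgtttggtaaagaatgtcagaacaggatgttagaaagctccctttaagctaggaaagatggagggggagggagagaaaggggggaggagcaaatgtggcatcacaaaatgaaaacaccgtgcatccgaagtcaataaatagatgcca

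Windows were held for 28 of the 36 genes, and not for Msr1, Csf1r, C1qa, Emr1, Clec4n, Arg1, Cd14 and Tyrobp. AGGAAGT on either strand was in the windows of 8 of the 28 (C1qb, C1qc, Fcgr1, Lyz1, Lyz2, Mrc1, Pf4 and Ptprc), or 28.6%, and in 8.80% of 27025 mouse genes. It starts 211 bases before the start site in Mrc1, 10 in Pf4, 53 in C1qb and 195 in C1qc, and the Gpnmb window has none. The AP-1 letters TGACTCA were in 2 of the 28 windows (Cd68 and Cd84) and 5.16% of all, and the E-box CACGTG in 1 (Lgmn) and 6.86% of all. The letters thus occur in members with both large and small tumour differences, and a match is a description of sequence and not of binding.

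Related genes of the macrophage programme were read from 9 further lists. Of 166 listed symbols 140 were measured, and 101 of these (72.1%) were lower with NXD30001, against 52.7% of all genes. The median was -0.32. At least 2-fold lower were 14 (10.0%), against 6.93% of all genes and 15.5% of those under 1 FPKM in culture. At least 2-fold higher were 6 (4.29%), against 7.32% of all genes. The related genes were not filtered by culture level, and 18 of the lysosomal and lipid-handling list alone reached 1 FPKM there. The authors' deposited table called 9 of them lower (6.43%, against 2.45% of all genes) and 4 higher (2.86%, against 3.14%). The transcription factor list (11 measured, median -0.48) had 8 lower genes. Sfpi1, which encodes PU.1, the master factor of the myeloid lineage, was at 12.8 FPKM in the NXD30001 tumour and 40.6 FPKM in the vehicle tumour, which gave a difference of -1.59 (implied error 0.46), called lower in the authors' deposited table. Irf8, an interferon regulatory factor of monocytes, was at 5.18 FPKM with NXD30001 and 12.3 FPKM with vehicle and was not called in the authors' deposited table. Nr1h3, the oxysterol receptor LXRα, was higher, at 8.66 FPKM with NXD30001 and 2.45 FPKM with vehicle, but its implied error was 4.36 and its locus is given to 3 rows.

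The growth factors and receptors did not share the downward direction. In this list (6 measured, median 0.06) 2 genes were lower and none was past 2-fold. Csf1, a ligand of Csf1r, was at 92.8 FPKM in the NXD30001 tumour and 78.8 FPKM in the vehicle tumour. Il34, the other ligand, was at 110.5 FPKM with NXD30001 and 83.4 FPKM with vehicle. Both ligands were above 1 FPKM in culture, at 9.79 FPKM with NXD30001 and 16.6 FPKM with DMSO for Csf1 and at 4.07 FPKM with NXD30001 and 2.30 FPKM with DMSO for Il34, whose locus is shared with another row. Csf2rb, the shared receptor chain for GM-CSF, was at 5.78 FPKM with NXD30001 and 5.29 FPKM with vehicle in the tumours.

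Other surface receptors (41 measured) had a median of -0.38, with 32 lower, 4 of them at least 2-fold, and 2 at least 2-fold higher. Of all genes 6.93% were that much lower and 7.32% that much higher. Among genes under 1 FPKM in culture 15.5% were that much lower. Cd36, a scavenger receptor also made by endothelial cells and adipocytes, was at 1.68 FPKM with NXD30001 and 10.3 FPKM with vehicle. Ccr2, the receptor that draws monocytes to CCL2, was at 0.971 FPKM with NXD30001 and 4.13 FPKM with vehicle, and Clec12a, an inhibitory lectin, at 2.37 FPKM with NXD30001 and 7.92 FPKM with vehicle. In the authors' deposited table Cd36 and Ccr2 carried a lower call. Cd52, a small surface glycoprotein of leukocytes, was at 14.2 FPKM with NXD30001 and 0.395 FPKM with vehicle, at a locus shared with another row. It was among the 2 genes of this list called higher in the authors' deposited table. The immune receptor signalling list (23 measured, median -0.38, 20 lower) had 1 gene past 2-fold, Blnk, at 2.12 FPKM with NXD30001 and 6.59 FPKM with vehicle. Syk, the kinase that binds ITAM adaptors, was at 4.84 FPKM with NXD30001 and 9.03 FPKM with vehicle. No gene of this list was called in the authors' deposited table.

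Complement genes beyond C1q were mixed (11 measured, median -0.57, 7 lower). The C1q-associated proteases C1s and C1rb had a lower call in the authors' deposited table. C1s was at 10.5 FPKM with NXD30001 and 25.8 FPKM with vehicle, and C1rb at 10.5 FPKM with NXD30001 and 24.6 FPKM with vehicle. Both have the same locus, which is given to 3 rows, so these calls are not from separate loci. C4b was called higher in the authors' deposited table, at 16.6 FPKM with NXD30001 and 7.41 FPKM with vehicle, and C3ar1, the C3a receptor of phagocytes, was at 11.1 FPKM with NXD30001 and 21.8 FPKM with vehicle. Lysosomal and lipid-handling genes (28 measured) had a median of -0.07, close to all genes, and 18 of them reached 1 FPKM in culture. Within that list Spp1, osteopontin, was at 415 FPKM with NXD30001 and 734 FPKM with vehicle. Lgals3, galectin-3, was at 296 FPKM with NXD30001 and 559 FPKM with vehicle, and the fatty acid carrier Fabp4 at 12.5 FPKM with NXD30001 and 65.8 FPKM with vehicle. These genes were all called lower in the authors' deposited table. In culture Spp1 was at 6.80 FPKM with NXD30001 and 7.28 FPKM with DMSO, and Lgals3 at 1.68 FPKM with NXD30001 and 1.15 FPKM with DMSO. Apoc1, the only gene of this list at least 2-fold higher in the tumours, was at 1.43 FPKM with NXD30001 and listed at 0 with vehicle. Fabp4 is on the adipocyte list as well, and endothelial cells make it too.

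Inflammatory activation markers were mixed, and most alternative activation markers were lower by sign. Of 15 inflammatory symbols 6 were measured, with a median of -0.26 and 3 lower. Saa3, an acute phase protein gene, was called higher in the authors' deposited table, at 129 FPKM with NXD30001 and 2.42 FPKM with vehicle. Il1b was listed at 0 with NXD30001 and at 1.02 FPKM with vehicle, and Nos2, the inducible nitric oxide synthase, was at 0.367 FPKM with NXD30001 and 1.27 FPKM with vehicle. The list of alternative activation and tissue-resident markers had 10 measured genes with a median of -0.53, of which 9 were lower and none was called in the authors' deposited table. Ccl8 was at 25.8 FPKM with NXD30001 and 53.3 FPKM with vehicle, Igf1 at 5.83 FPKM with NXD30001 and 15.2 FPKM with vehicle, and the lectin gene Cd209f at 1.16 FPKM with NXD30001 and 4.60 FPKM with vehicle.

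**Figure D4:**
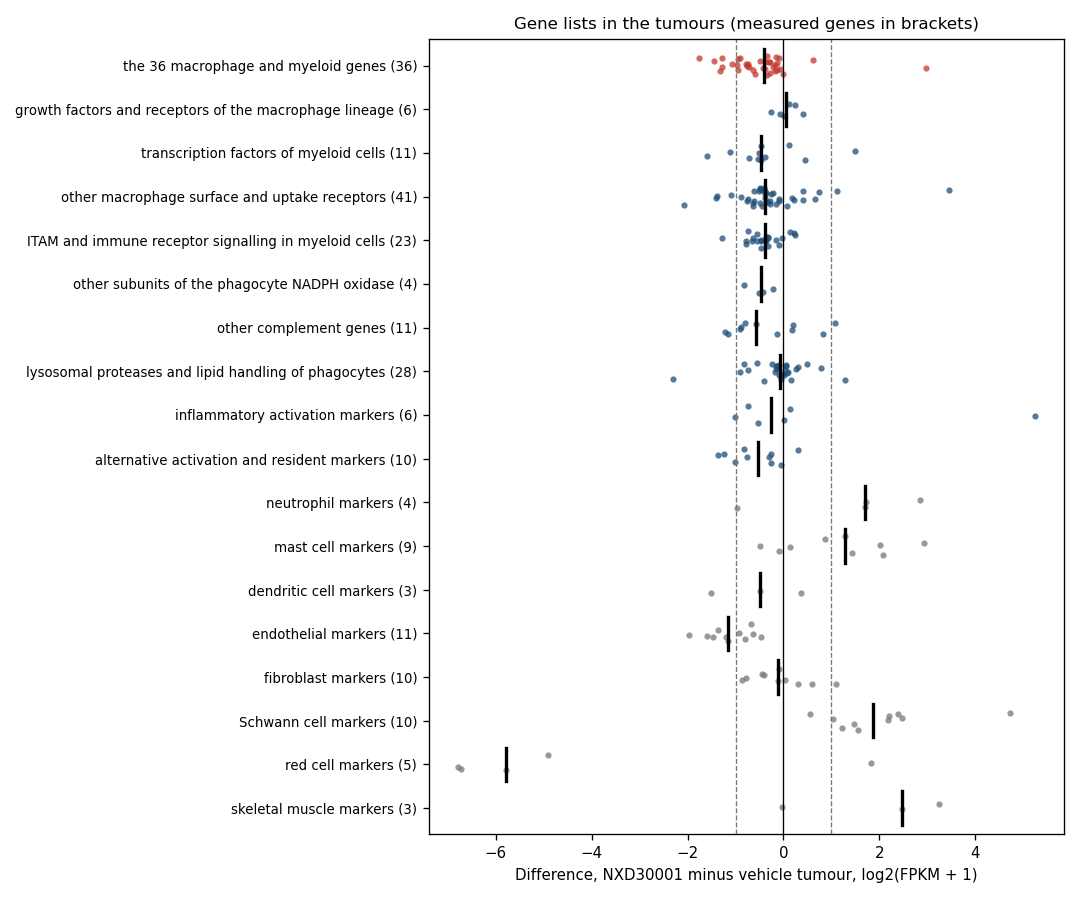
Difference in log2(FPKM + 1), NXD30001 minus vehicle tumour, for every measured gene of the 36 (red), of the 9 related lists (blue) and of other cell type lists with at least 3 measured genes (grey); black bars are medians and dashed lines mark 2-fold. The red and most blue medians lie between 0 and -0.57, the endothelial median lies at -1.17 and the Schwann median at 1.86.

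Markers of other cell types differed between the same libraries. Lymphoid markers were scarce in both. Of 15 T cell markers 2 were measured and 7 were listed at 0 in both libraries, among them Cd2, Cd3e and Cd8a. The 15 summed to 3.30 FPKM with NXD30001 and 16.5 FPKM with vehicle. Of these sums Cd27 made 1.11 FPKM with NXD30001 and 13.8 FPKM with vehicle, at a locus given to 3 rows. The cultured graft line also held Cd27, at 0.182 FPKM with NXD30001 and 3.00 FPKM with DMSO. None of 9 B cell markers reached 1 FPKM and 5 were at 0 in both, with sums of 1.01 FPKM with NXD30001 and 0.922 FPKM with vehicle. NK cell markers summed to 0.801 FPKM with NXD30001 and 2.83 FPKM with vehicle (1 of 9 measured). Dendritic cell markers summed to 6.39 FPKM with NXD30001 and 13.96 FPKM with vehicle (3 of 9 measured, 2 of them at 1 FPKM or more in culture). Zbtb46 made 1.73 FPKM with NXD30001 and 6.77 FPKM with vehicle of the dendritic sums. In culture Zbtb46 was at 6.59 FPKM with NXD30001 and 5.46 FPKM with DMSO, and Cd83 at 2.69 FPKM with DMSO and 0 with NXD30001.

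Other myeloid markers were mixed. Neutrophil markers summed to 99.1 FPKM in the NXD30001 tumour and 101 FPKM in the vehicle tumour (4 of 12 measured, 3 higher by at least 2-fold, with Ly6g, Ltf and Camp at 0 in both). The largest contributor in both libraries was Mmp9, a gelatinase gene that macrophages also use, at 45.8 FPKM with NXD30001 and 90.2 FPKM with vehicle and given a lower call in the authors' deposited table. Without Mmp9 the neutrophil markers summed to 53.4 FPKM with NXD30001 and 10.4 FPKM with vehicle. Most of that was S100a8 and S100a9. S100a8 was at 21.9 FPKM with NXD30001 and 2.18 FPKM with vehicle (implied error 1.12). S100a9 was at 24.8 FPKM with NXD30001 and 6.96 FPKM with vehicle (implied error 0.60). No neutrophil marker was called higher in the authors' deposited table. Mast cell markers summed to 57.0 FPKM with NXD30001 and 16.01 FPKM with vehicle (9 of 10 measured, 5 higher by at least 2-fold, with Ms4a2 at 0 in both). Fcer1g and Tyrobp, which lay within 0.25 of 0, are also made by neutrophils and mast cells, and the part of those cells in their levels was not tested.

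Stromal, blood and graft markers differed by unequal amounts. Endothelial markers summed to 40.5 FPKM with NXD30001 and 99.8 FPKM with vehicle (11 of 12 measured, all 11 lower, and Eng with the status FAIL). Red cell markers summed to 5.10 FPKM with NXD30001 and 315 FPKM with vehicle (5 of 6 measured, 4 of them lower), and Pf4 is also a platelet gene. Adipocyte markers summed to 14.1 FPKM with NXD30001 and 69.4 FPKM with vehicle (2 of 6 measured), of which Fabp4 made 12.5 FPKM with NXD30001 and 65.8 FPKM with vehicle. Adipoq, Plin1, Lep and Cidec were under 1 FPKM in both tumour libraries. Skeletal muscle markers summed to 33.7 FPKM with NXD30001 and 5.83 FPKM with vehicle (3 of 6 measured), and fibroblast markers to 3398 FPKM with NXD30001 and 4151 FPKM with vehicle (all 10 measured, median difference -0.11). Schwann cell markers summed to 584 FPKM with NXD30001 and 169.6 FPKM with vehicle (10 of 11 measured, all higher, 9 by at least 2-fold). The part of blood content, vessel content and graft share in the differences of the 36 genes was not tested.

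Transcript length differed along with the size of the difference. Among the 36 genes the 16 with a coding transcript of 2000 bases or more had a median difference of -0.76 and the 20 shorter ones -0.33, with 3 genes at least 2-fold lower in each. Spearman's rho between length and difference was -0.35 over the 36 genes, given as a description across genes of the same 2 libraries. Over 11995 compared genes with a length rho was 0.01, with medians of -0.02 for the longer and -0.03 for the shorter genes. Pf4, Clec4n and Ms4a7 are short and at least 2-fold lower, while Msr1 and Ncf1 are long and near level. The part of length in these differences was not tested.

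**Figure D5:**
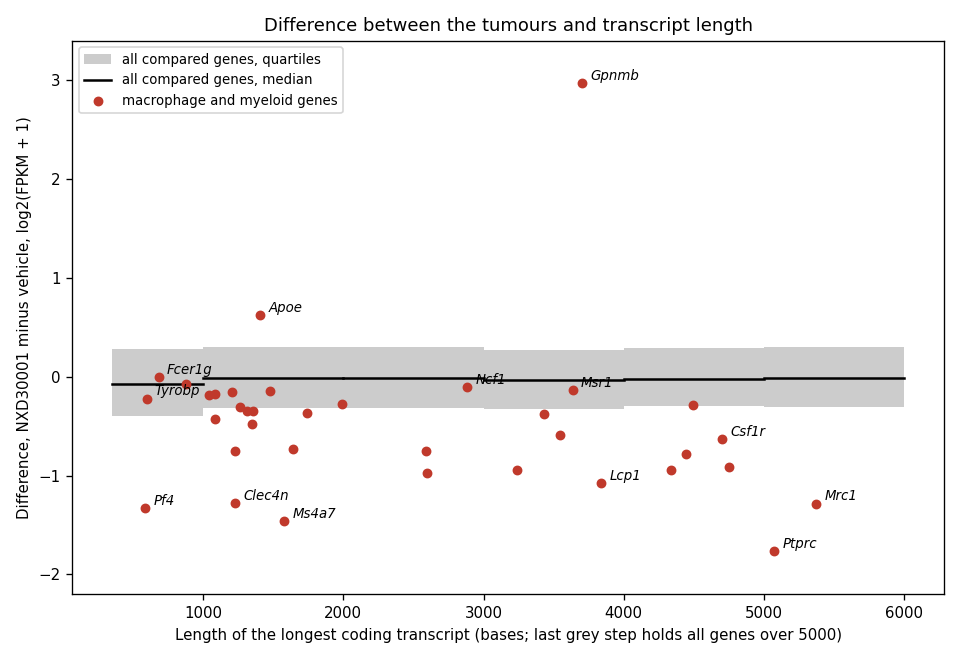
Difference in log2(FPKM + 1), NXD30001 minus vehicle tumour, against the length in bases of the longest coding transcript, for the 36 genes (red points), with the median (black) and quartiles (grey) of all compared genes per length step. The median of all genes stays between -0.07 and -0.02 at every step, while the 36 genes lie mostly below it.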

How the data were processed

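Per the labels' protocols, Trizol and a total RNA kit gave the RNA, and Illumina's protocol the libraries. CASAVA, TopHat 1.2.0, Cufflinks 1.0.2, Cuffdiff and build mm9 are named in the submitters' processing notes. No source used here gives the strand setting. The authors deposited 2 tables of 35604 genes, each with the FPKM of 2 libraries. Per the file headers, each row also has a fold change as a natural log, and scores of the authors (their statistic and q-value). The q-values exceed 1, so only the call itself was used.

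Rows of status FAIL (347) or LOWDATA (449) in the tumour table were left out. Differences are log2(FPKM + 1), treated minus untreated, for genes at 1 FPKM or more in a library. This scale understates changes of low genes. No test was run, each group having 1 library. The implied error is the authors' natural log fold over their statistic, on the log2 scale, and belongs to the ratio without a pseudocount. Locus starts count from 0 (by end minus start, 10580 of 19955 single-gene loci had exactly the gene span in GENCODE M21 if starts count from 0, and 268 if they count from 1), and 1 was added to each.

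The members and gene lists were chosen with earlier results of these data known, as were the motifs and the length comparison. Every member was named, and from each other list up to 4 measured genes with the largest difference, some of which are not reported here. Of the 166 related symbols, 157 matched by symbol and 4 by gene ID. Transcript lengths and words came from GENCODE M21 by gene ID. Counts were made with Python 3.11.15, pandas 2.3.3 and scipy 1.17.1 and tested on simulated data. Alternatives were the pseudocount, the minimum level, centring, shared loci, the fold and the culture level.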

Additional observations from a re-analysis of the deposited data

Results flagged for a closer look

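Of the genes reported here and compared in both tables, 2 differed past 2-fold in opposite directions in tumours and in culture. Neither is one of the 36 macrophage and myeloid genes. With 1 library per group the difference between tumours and culture was not tested. Egr2, a Schwann cell factor, differed by 2.48 in tumours and by -2.78 in culture (NXD30001 minus untreated, log2(FPKM + 1)), with an implied error of 7.20 in the tumour table. Tek, an endothelial receptor gene, differed by -1.97 in tumours and by 1.63 in culture, where it was at 2.18 FPKM with NXD30001 and 0.0324 FPKM with DMSO.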

How the results depend on the processing

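With a pseudocount of 0.1 or 5, no minimum level, a minimum of 5 FPKM, or centring on all genes, 5 to 7 of the 36 genes were at least 2-fold lower and 1 was higher. The share of all genes that much lower was 9.36% with a pseudocount of 0.1, where 7 members were lower. It was 2.73% with a pseudocount of 5, where 5 members were lower. The share of all genes that much higher was 9.46% and 2.90% at these pseudocounts. The other settings lay between for both shares. Over those settings and the removal of 4 shared-locus members, the median lay between -0.42 and -0.37. After centring 33 genes were below 0 in place of 34, since Fcer1g turned to 0.03. At 1.5-fold 15 genes were lower and 2 higher, where 14.8% of all genes were lower and 14.2% higher. The number of members in culture was 10 at a level of 0.1 FPKM and 1 at 5 FPKM, against 3 at 1 FPKM. The median difference was -0.12 for the 10 members at 0.1 FPKM in culture and -0.61 for the rest, against -0.27 for the 3 at 1 FPKM and -0.42 for the other 33. The counts follow from the thresholds themselves. Gpnmb differed by 2.14 with a pseudocount of 5. The other 35 genes moved by less than their implied error with either pseudocount and after centring. The pseudocount of 5 for single genes, the other culture levels for the median of members in culture, and all settings for the count below 0, were chosen after seeing the data.

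Leaving out a library was not possible with 1 per group. No paired analysis was possible because each group has 1 library. The tables give no counts, so no counting interval can be attached to a level, and a value of 0 is only listed as such. The median implied error was 0.33, and 19 of the 36 members lay within 1.96 times their own implied error. Differences of that size could not be told from 0 on these reads. Those 19 are counted as lower by sign alone.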
